A study of Mus musculus with 12 samples.

Results

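The glucocorticoid receptor gene Nr3c1 and 9 genes that glucocorticoid hormones induce in many tissues (Tsc22d3, Fkbp5, Ddit4, Sgk1, Dusp1, Klf9, Zbtb16, Cebpd and Mt1) were followed in B cells of the Peyer's patches after experimental stroke. They were found by gene name among the 36175 genes of the expression table, and all 10 were present. Male C57BL/6JHsd mice aged 10 to 12 weeks had either 1 h of transient middle cerebral artery occlusion (stroke mice, n = 6) or a sham operation without occlusion (sham controls, n = 6). Both groups were anaesthetised and received buprenorphine and carprofen, and no unoperated mice were analysed here. Peyer's patch (PP) B cells were purified magnetically 18 h after surgery, with a pan B cell kit and then with CD45 beads. The study reports that the kit left a few epithelial and endothelial cells and that the beads brought the B cells to a high purity. There was 1 total RNA library for each mouse.

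The glucocorticoid receptor rests in the cytoplasm in a complex of HSP90 and co-chaperones. After binding cortisol or corticosterone it enters the nucleus, where receptor dimers bind a palindromic DNA element near induced genes, while NF-kB and AP-1 target genes are repressed. Acute brain injury is known to raise circulating glucocorticoids, which in lymphocytes restrain cytokine production and can lead to apoptosis. No hormone level was available among the data analysed here, so the genes below describe transcript levels alone.

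Levels are given as normalized TPM signal, a value per transcript length in which the column totals still ranged from 559570 to 1404340 between mice. Read depth is unknown from these values. The label of the cells was checked on 12 B cell markers, all of which were at 1 or more in every mouse. Their summed signal ranged from 4466 to 6248 in sham controls and from 2980, in stroke mouse 5, to 5699 in stroke mice. By limma, 2 of the 12 were lower in stroke mice at an unadjusted p under 0.05, against 1.69% of the 12590 genes tested below. Of the 12 differences 9 were negative, with a median log2 fold change of -0.2. Signal of 14 intestinal epithelium markers was also present and uneven. Its sum ranged from 40.1 over a median of 932 to 3491 in sham controls and from 64.0 over 344 to 1659 in stroke mice. Of these markers 7 were tested, and 6 had a negative log2 fold change, with a median of -1.59 over the 7. None of the 7 had an unadjusted p under 0.05 by limma. Sham control 6 had the lowest column total, the lowest epithelial sum and, together with stroke mouse 5, the lowest sample weight. In bulk samples, fewer cells of a type and less RNA per cell cannot be told apart.

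Across the 12590 genes at 1 or more in every mouse, limma with Benjamini-Hochberg adjustment called 0 genes (0%) at 0.05, the smallest adjusted value being 0.468. Before adjustment, stroke mice were higher in 557 genes (4.42%) and lower in 213 (1.69%) at p under 0.05. The balance rests on sham control 6, without which 937 genes (7.44%) were higher and 1158 (9.2%) lower. What follows is from the fit of all 12 mice unless stated. Of the 10 genes, 8 passed this filter. Fkbp5 and Ddit4 were higher at an unadjusted p under 0.05, 0 were lower, and 0 had an adjusted p under 0.05. The lowest stroke mouse was above the highest sham control in 44 of the 12590 genes (0.349%) and in 0 of the 8. Fold changes are differences of log2(value + 0.5), stroke minus sham, which understate changes of low genes, and exact permutation tests over the 12 mice are two-sided with a smallest possible p of 0.002165.

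**Figure D1:**
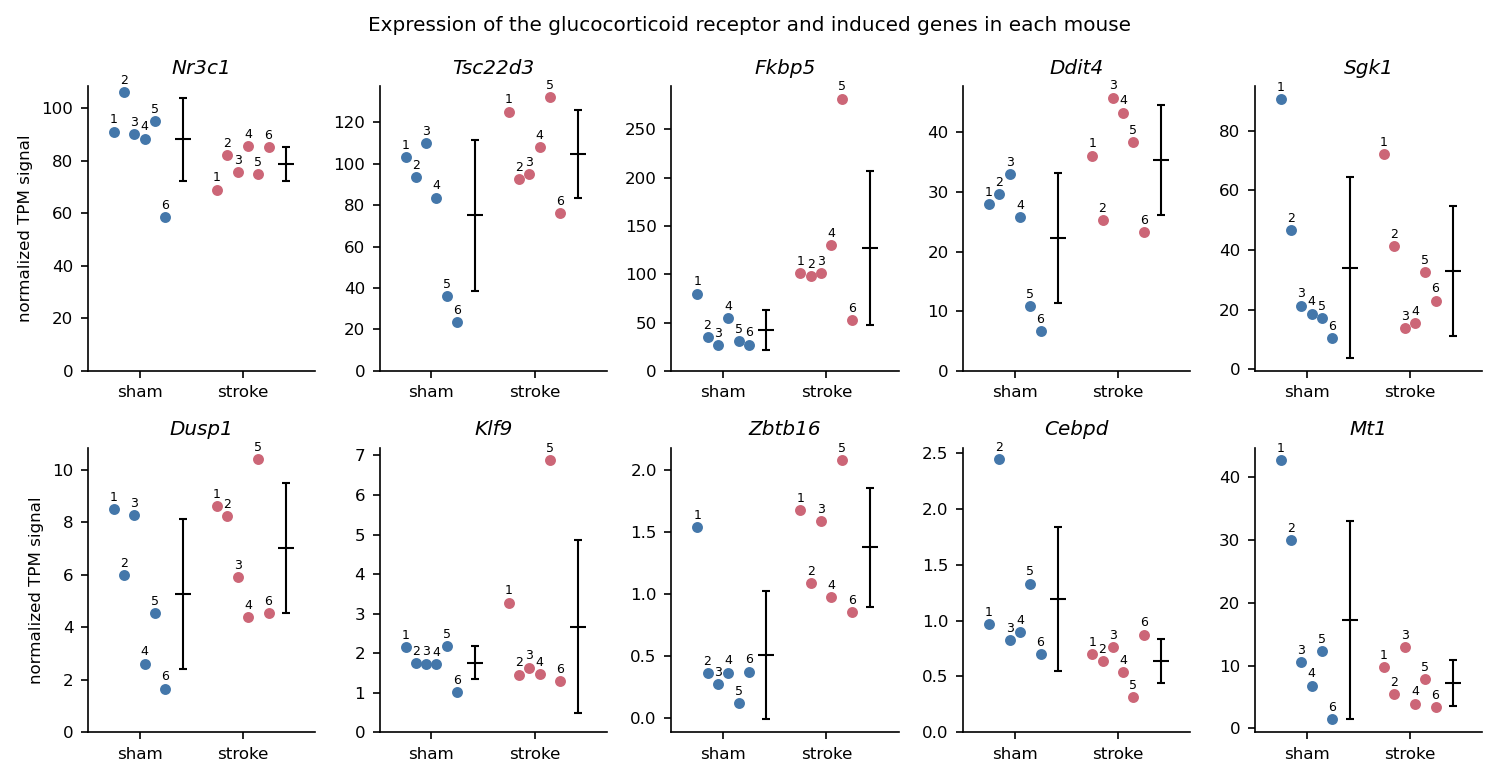
Normalized TPM signal (vertical axes, linear) of the 10 genes in each sham control (blue) and each stroke mouse (red), with the mouse number above each point and the mean with SD beside each group (n = 6 each). Fkbp5 lies at 97.9 or more in 5 of 6 stroke mice and at 80.0 or less in every sham control, whereas Nr3c1 lies between 69.0 and 85.4 in stroke mice.

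The promoters of the induced genes show which of them carry the receptor's palindrome next to a transcription start. RefSeq windows (GRCm38.p6, 250 bases before to 50 after a start) were matched by symbol for 7 of the 10 genes, with 14 windows in all, and were not matched for Nr3c1, Zbtb16 and Cebpd. The complete glucocorticoid response element was searched on both strands as the hexamers AGAACA and TGTTCT separated by 3 bases, and the hexamer AGAACA alone was searched likewise, so that a complete element also counts as 2 hexamers. The complete element was found in 3 of 32851 windows genome-wide (0.00913%), 1 of which belongs to Sgk1, and the hexamer in 19% of windows. The 250 bases before the start are shown 5′ to 3′ for Sgk1, which has the complete element. They are also shown for Tsc22d3 and Ddit4, the pair with the highest Pearson's r across all mice, and for Fkbp5. Fkbp5 had the largest difference between groups on the log2(value + 0.5) scale. Capitals mark the hexamers and the complete element, and in Ddit4 a metal element (TGCGCNC, where N is any base).
Sgk1, the fifth of 6 starts, chr10:21993640-21993889, plus strand: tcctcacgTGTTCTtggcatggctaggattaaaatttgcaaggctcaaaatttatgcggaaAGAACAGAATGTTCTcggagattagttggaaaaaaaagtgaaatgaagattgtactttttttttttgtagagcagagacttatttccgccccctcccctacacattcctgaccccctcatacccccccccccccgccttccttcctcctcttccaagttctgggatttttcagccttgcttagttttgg
Tsc22d3, most upstream of 3 starts, chrX:140600523-140600772, minus strand: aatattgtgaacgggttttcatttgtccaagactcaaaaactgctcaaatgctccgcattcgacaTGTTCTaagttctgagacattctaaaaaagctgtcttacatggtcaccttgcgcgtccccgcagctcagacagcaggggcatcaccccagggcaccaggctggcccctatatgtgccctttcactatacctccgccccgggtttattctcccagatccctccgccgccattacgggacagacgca
Ddit4, chr10:59951771-59952020, minus strand: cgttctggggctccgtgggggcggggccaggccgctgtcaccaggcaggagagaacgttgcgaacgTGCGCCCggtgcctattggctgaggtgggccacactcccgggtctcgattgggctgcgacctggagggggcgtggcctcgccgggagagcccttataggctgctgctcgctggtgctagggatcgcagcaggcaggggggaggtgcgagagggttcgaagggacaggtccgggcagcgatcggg
Fkbp5, chr17:28486150-28486399, minus strand: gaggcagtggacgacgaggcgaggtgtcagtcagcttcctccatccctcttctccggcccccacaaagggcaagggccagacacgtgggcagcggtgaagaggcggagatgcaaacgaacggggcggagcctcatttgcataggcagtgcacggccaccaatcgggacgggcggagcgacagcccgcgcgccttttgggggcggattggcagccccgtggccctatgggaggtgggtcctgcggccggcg
The complete Sgk1 element begins 189 bases before its start, at chr10:21993701-21993715, which is 965 bases before the last of the 6 Sgk1 starts. Tsc22d3 has a hexamer at -185, and the Ddit4 and Fkbp5 windows hold no match to either. These are matches of letters and were not tied to receptor binding, which was not measured.

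By mean signal over both groups, Tsc22d3 (89.9), Fkbp5 (84.9) and Nr3c1 (83.4) were the most abundant, and their ranges over mice overlapped. The place of Fkbp5 differed by group, since its mean was below those of Nr3c1 and Tsc22d3 in sham controls (42.3 against 88.1 and 75.1) and above both in stroke mice (127 against 78.7 and 104.6). Sgk1 (33.6) and Ddit4 (28.8) followed with overlapping ranges, then Mt1 (12.3), Dusp1 (6.14) and Klf9 (2.22). The mean of Ddit4 was below that of Sgk1 in sham controls (22.3 against 34.1) and above it in stroke mice (35.4 against 33.0). Nr3c1 stood above 87.9% of the tested genes and Klf9 above 3.06%. Zbtb16 and Cebpd fell under 1 in some mice and did not enter the fit across all genes.

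Nr3c1 (ENSMUSG00000024431, GRCm38 chr18:39410545-39519421) encodes the receptor itself. Its signal was 88.1 ± 15.7 (SD, n = 6) after sham surgery against 78.7 ± 6.58 (SD, n = 6) after stroke. The sham controls ranged from 58.6 over a median of 90.5 to 106, and the stroke mice from 69.0 over 78.9 to 85.4. All 6 stroke mice lay under the sham mean, yet sham control 6 lay below all of them, so that the groups overlapped. The log2 fold change was -0.14 (SE 0.14, 95% interval -0.44 to 0.15), with a limma adjusted p of 0.855 and an exact permutation p of 0.297. Without sham control 6 the difference was -0.26 and the exact permutation p was 0.00649, the limma adjusted p being 0.270. Under equal column totals it was -0.02, with an exact permutation p of 0.877.

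Fkbp5 (ENSMUSG00000024222, GRCm38 chr17:28399094-28517527) had the largest log2(value + 0.5) difference of the 10 genes, a scale that compresses low genes such as Zbtb16, whose ratio of medians was larger (3.67). Fkbp5 encodes FKBP51, an HSP90 co-chaperone that lowers the receptor's affinity for hormone and so acts as feedback. Its signal was 42.3 ± 21.2 (SD, n = 6) after sham surgery against 127 ± 79.6 (SD, n = 6) after stroke, a ratio of means of 3.01 and of medians of 3.07. Sham controls ranged from 26.4 over a median of 33.0 to 80.0, and stroke mice from 52.5 over 101 to 282. In 5 of 6 stroke mice it lay above the highest sham control, sham control 1, and stroke mouse 6 was the exception. Stroke mouse 5, at 282, was the highest and the next, stroke mouse 4, stood at 130. The log2 fold change was 1.51 (SE 0.37, 95% interval 0.73 to 2.30), 21st of 12590 genes by limma p (unadjusted p = 0.00109), and the adjusted p was 0.656. The exact permutation p for Fkbp5 alone was 0.00649 and lay between 0.00216 and 0.0357 over the alternatives, while the adjusted p lay between 0.141 and 0.974. Omitting single mice gave fold changes from 1.25, without stroke mouse 5, to 1.73.

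Zbtb16 (ENSMUSG00000066687, GRCm38 chr9:48654297-48836222) encodes PLZF, a transcriptional repressor strongly induced by glucocorticoids in many cell types and also required by natural killer T cells. Its signal was low, 0.507 ± 0.517 (SD, n = 6) after sham surgery against 1.38 ± 0.478 (SD, n = 6) after stroke, a ratio of 2.72. Sham control 1 stood at 1.54 and the other sham controls between 0.121 and 0.376, whereas stroke mice ranged from 0.855 over 1.34 to 2.08. All 6 stroke mice therefore lay above 5 of the 6 sham controls, and 3 of them above all 6. The difference on the log2(value + 0.5) scale was 0.98 with an exact permutation p of 0.00866, and omitting single mice gave 0.86 to 1.20. As the signal lies near the pseudocount, the difference was 1.53 with a pseudocount of 0.1 and 0.69 with 1, both with an exact permutation p of 0.00866. In the limma fit without a filter the adjusted p was 0.770. The summed signal of 12 T cell markers was 96.8 to 198 in sham controls (median 130) and 87.2 to 207 in stroke mice (median 162). Sham control 1, with the highest Zbtb16 of the sham controls, had the sum of 198. Stroke mouse 1, at 1.68 for Zbtb16, had that of 207. Stroke mouse 5, with the highest Zbtb16, had a T cell sum of 100.6, and stroke mouse 6, with the lowest Zbtb16 of the stroke mice, one of 192. The part of T cells in the Zbtb16 difference was not tested.

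**Figure D2:**
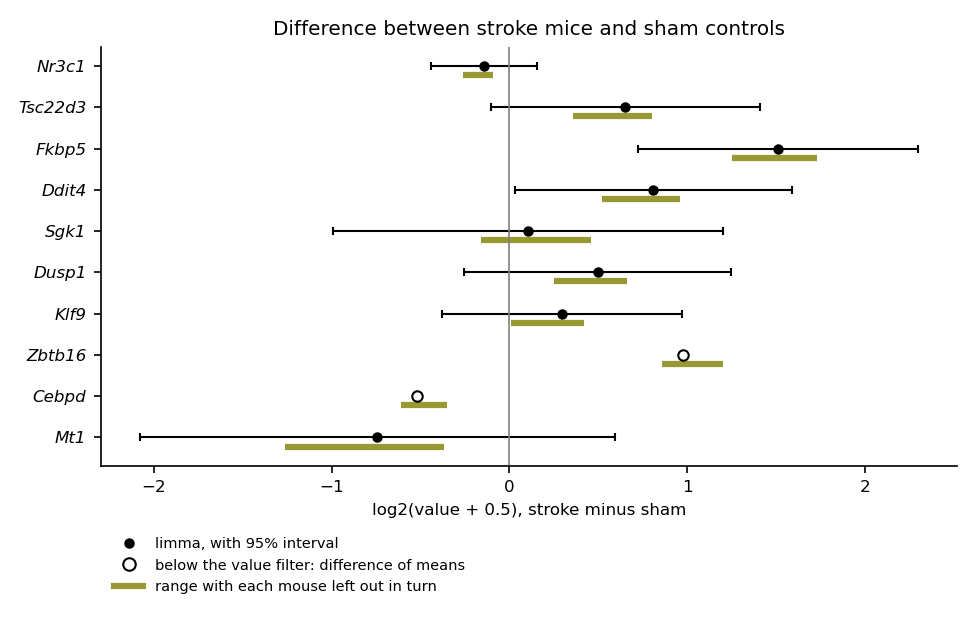
Difference between stroke mice and sham controls on the log2(value + 0.5) scale (horizontal axis) for the 10 genes, with filled points and 95% intervals from limma, open points for the 2 genes below the value filter, and olive bars for the range when single mice are omitted. The interval lies above 0 for Fkbp5 (0.73 to 2.30) and for Ddit4 (0.03 to 1.59), and the bar crosses 0 for Sgk1 (-0.16 to 0.46).

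Tsc22d3 (ENSMUSG00000031431, GRCm38 chrX:140539528-140600659) encodes GILZ, which binds NF-kB and AP-1 and carries much of the anti-inflammatory action of glucocorticoids. Its signal was 75.1 ± 36.4 (SD, n = 6) after sham surgery against 104.6 ± 21.1 (SD, n = 6) after stroke. Sham controls ranged from 23.6 over a median of 88.6 to 110, and stroke mice from 76.0 over 101 to 132. Sham controls 5 and 6, at 36.2 and 23.6, lay apart below all the others, and the remaining 4 sham controls, at 83.5 to 110, lay within the range of the stroke mice. The log2 fold change was 0.65 (SE 0.35, 95% interval -0.10 to 1.41), with a limma adjusted p of 0.791 and an exact permutation p of 0.145. Without sham control 6 it was 0.36, and under equal column totals it was 0.78 with an exact permutation p of 0.0238.

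Ddit4 (GRCm38 chr10:59949669-59951834) encodes REDD1, an inhibitor of the growth kinase complex TORC1 that also responds to hypoxia and energy stress. Its signal was 22.3 ± 10.8 (SD, n = 6) after sham surgery against 35.4 ± 9.25 (SD, n = 6) after stroke, a ratio of 1.59. Sham controls ranged from 6.66 to 33.0 and stroke mice from 23.3 to 45.8, and sham controls 5 and 6 were again the lowest, at 10.8 and 6.66. The log2 fold change was 0.81 (SE 0.36, 95% interval 0.03 to 1.59) with an unadjusted p of 0.043 and an adjusted p of 0.791 by limma, and the exact permutation p was 0.0671. The unadjusted limma p was no longer under 0.05 without sham control 5 or 6, or without stroke mouse 1, 3, 4 or 5, and the fold change without sham control 6 was 0.52. Under equal column totals it was 0.94, with an exact permutation p of 0.0152.

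Dusp1, Klf9 and Sgk1 showed overlapping groups and intervals that included 0. Dusp1 (GRCm38 chr17:26505590-26562128), a phosphatase that switches off p38 and JNK kinases, was at 5.26 ± 2.85 (SD, n = 6) after sham surgery against 7.01 ± 2.45 (SD, n = 6) after stroke, a log2 fold change of 0.50 (95% interval -0.26 to 1.25, limma adjusted p = 0.815) and 0.25 without sham control 6. Klf9 (GRCm38 chr19:23141226-23168134), a transcription factor induced by glucocorticoids and thyroid hormone, had a log2 fold change of 0.30 (95% interval -0.38 to 0.97, limma adjusted p = 0.861). Stroke mouse 5 stood at 6.88 for Klf9 and the other stroke mice between 1.30 and 3.28, and without it the fold change was 0.01.

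Sgk1 (GRCm38 chr10:21882184-21999903), a kinase that regulates ion channels and the only one of the 7 genes with the complete response element in a searched window, was at 34.1 ± 30.4 (SD, n = 6) after sham surgery against 33.0 ± 21.8 (SD, n = 6) after stroke. The log2 fold change was 0.11 (95% interval -0.99 to 1.20), with a limma adjusted p of 0.969 and an exact permutation p of 0.853. Sham control 1 (90.7), stroke mouse 1 (72.2), sham control 2 (46.6) and stroke mouse 2 (41.3) had the highest levels. The summed epithelial marker signal was 3050, 1659, 3491 and 734.3 in these mice, and 40.1 in sham control 6, which had the lowest Sgk1, at 10.5. The order did not match in every mouse, since sham control 5 had an epithelial sum of 1371 with Sgk1 at 17.0, and stroke mouse 5 one of 117.3 with Sgk1 at 32.5. The part of epithelial RNA in the Sgk1 levels was not tested.

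Cebpd and Mt1 had lower means in stroke mice. Cebpd (GRCm38 chr16:15887286-15891031), a transcription factor of myeloid cells and the acute phase response, was at 1.19 ± 0.646 (SD, n = 6) after sham surgery against 0.636 ± 0.195 (SD, n = 6) after stroke, 1.87 times as high in sham controls. Stroke mice ranged from 0.313 to 0.874 and sham controls from 0.699 to 2.44, and 4 of 6 stroke mice lay below the lowest sham control. The difference on the log2(value + 0.5) scale was -0.52 with an exact permutation p of 0.0152, and -0.35 without sham control 2. With the 4 mice of lowest weight left out it was -0.33, and the exact permutation p was 0.0536. The limma adjusted p without a filter was 0.770. The summed signal of 12 neutrophil and monocyte markers was 32.0 to 278 in sham controls and 41.3 to 153 in stroke mice. It was 187 in sham control 2, with the highest Cebpd, and 41.3 in stroke mouse 5, with the lowest. The sum was highest in sham control 1 (278), where Cebpd stood at 0.965, and lowest in sham control 6 (32.0), where Cebpd stood at 0.699, above 4 of the 6 stroke mice. Its part in the difference was not tested.

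Mt1 (GRCm38 chr8:94179082-94180327), a metallothionein that binds zinc and is induced by metals and glucocorticoids, was at 17.3 ± 15.7 (SD, n = 6) after sham surgery against 7.22 ± 3.67 (SD, n = 6) after stroke. Sham controls ranged from 1.43 to 42.7 and stroke mice from 3.44 to 12.9, so that the stroke mice lay inside the range of the sham controls. The log2 fold change was -0.74 (95% interval -2.08 to 0.59, limma adjusted p = 0.835), and the exact permutation p was 0.320. It was -1.26 without sham control 6, with an exact permutation p of 0.0455, and -0.37 without sham control 1. Sham controls 1 and 2 had the highest Mt1 and epithelial sums of 3050 and 3491, and sham control 6 had the lowest of both. Stroke mouse 1 had a sum of 1659 with Mt1 at 9.72, however, and stroke mouse 3 a sum of 96.5 with Mt1 at 12.9, and the part of epithelial RNA was not tested. The Mt1 window held 3 metal elements (TGCGCNC or TGCACNC), a number that 1.97% of all windows reach.

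Pairs of the 10 genes were then compared across the 12 mice on the log2(value + 0.5) scale, 45 pairs in all, with permutation p-values adjusted over the 45. Of these, 36 had a positive Pearson's r and 9 a negative one, and the median r was 0.437. Tsc22d3 and Ddit4 had an r of 0.954 (permutation p = 0.00028, adjusted 0.0063) and a Spearman's rho of 0.832 (permutation p = 0.00144, adjusted 0.0324). Without sham controls 5 and 6, the mice farthest from the median of Tsc22d3, r was 0.632 (permutation p = 0.0515), so the relation rests in large part on those mice. Within groups, r was 0.996 in sham controls and 0.603 in stroke mice.

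Fkbp5 and Zbtb16 had an r of 0.882 (permutation p = 0.00019, adjusted 0.0063) and a rho of 0.846 (permutation p = 0.00091, adjusted 0.0324). Without sham control 3 and stroke mouse 5, r was 0.846 (permutation p = 0.00376). It was 0.817 within sham controls and 0.725 within stroke mice. Sham control 1, the sham control with the highest Fkbp5, at 80.0, was also the one with the highest Zbtb16, at 1.54. After centring each group on its mean r was 0.734, with a permutation p adjusted over the pairs of 0.0663, so this pair was past the threshold only with the group difference included.

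**Figure D3:**
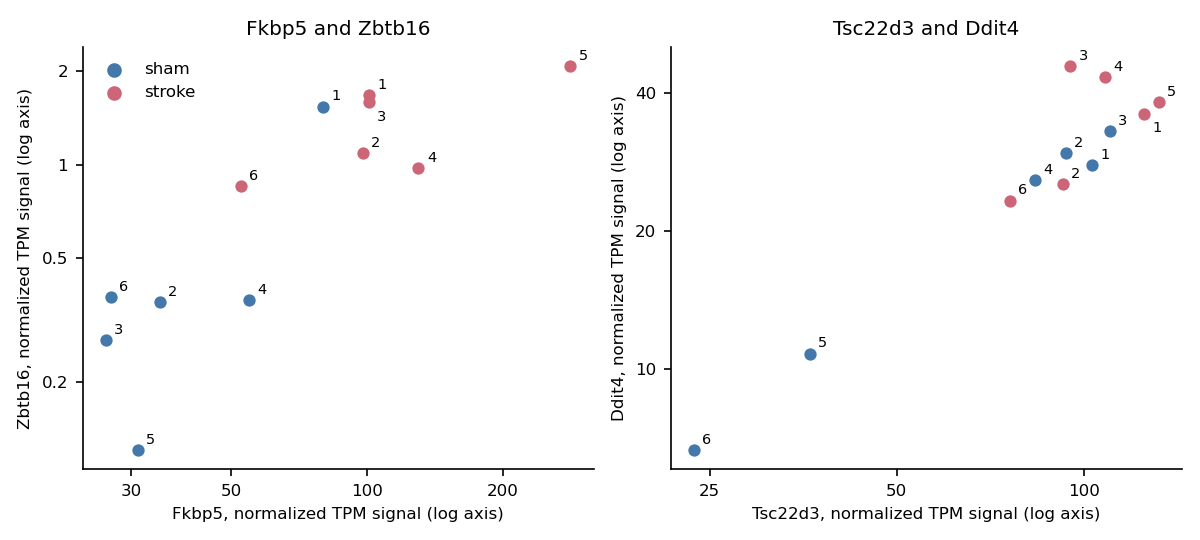
Signal of Fkbp5 against Zbtb16 (left) and of Tsc22d3 against Ddit4 (right) in each mouse, normalized TPM signal on log axes, with sham controls in blue, stroke mice in red and the mouse number beside each point. Sham control 1 lies among the stroke mice on the left, and sham controls 5 and 6 lie apart at the lower left of the right panel.

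Nr3c1 did not follow its induced genes across mice past the threshold on Pearson's r. Its r was 0.299 with Tsc22d3 (permutation p = 0.33, adjusted 0.45; rho -0.126, permutation p = 0.7, adjusted 0.806) and -0.22 with Fkbp5 (permutation p = 0.493, adjusted 0.555; rho -0.392, permutation p = 0.209, adjusted 0.362). Without sham controls 2 and 6 these became -0.606 (permutation p = 0.0574) and -0.684 (permutation p = 0.029), so the sign for Tsc22d3 and the size for both rest on those mice. Within groups the signs were opposite, with r of 0.713 in sham controls and -0.685 in stroke mice for Tsc22d3, and 0.28 and -0.36 for Fkbp5, a difference that was not tested. Cebpd was the gene with the highest r to Nr3c1, at 0.651 (permutation p = 0.0279, adjusted 0.0929; rho 0.769, permutation p = 0.00446, adjusted 0.0483).

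**Figure D4:**
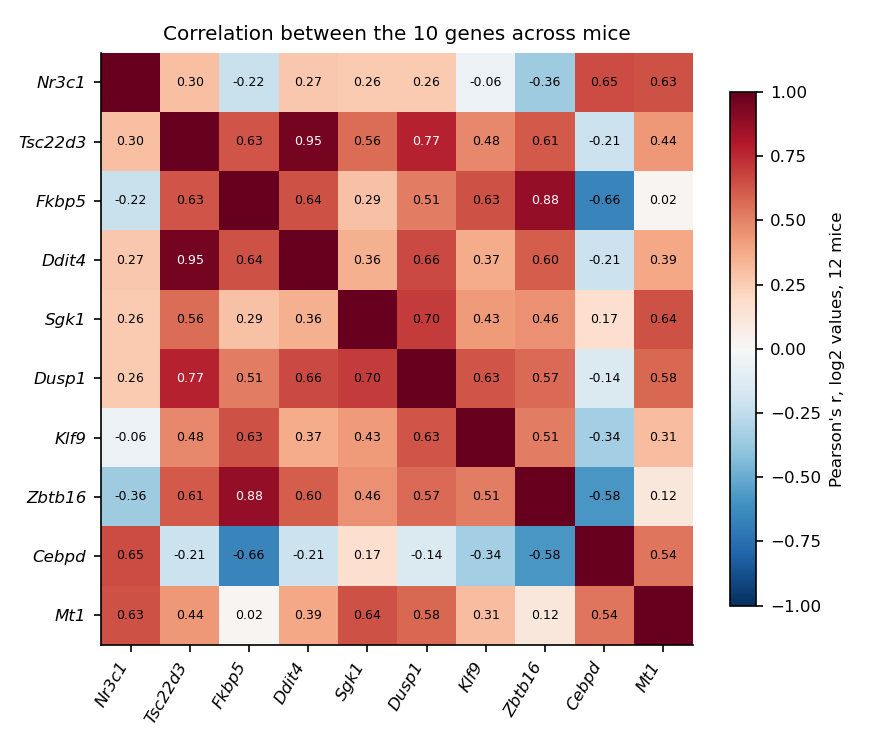
Pearson's r between each pair of the 10 genes across the 12 mice on the log2(value + 0.5) scale, from blue (-1) through white (0) to red (1). The darkest off-diagonal squares are Tsc22d3 with Ddit4 (0.95) and Fkbp5 with Zbtb16 (0.88), and Cebpd is negative with Fkbp5 (-0.66).

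Likeness to Tsc22d3 was also ranked over all tested genes by Pearson's r across the 12 mice, as a description. Ddit4 was closest of 12590 genes (r = 0.954), and Serinc3 (0.953), Zkscan14 (0.931) and Clcn5 (0.919) were among the next, against a median r of 0.131. Dusp1 ranked 234th and Fkbp5 894th. With Fkbp5 as the reference, which was chosen after its values were seen, the closest genes were Ptpn22 (r = 0.938), Vars (0.933), Lifr (0.932), Bmf (0.927) and Coro2a (0.925), against a median r of 0.0256. All 12 mice share the group difference, the uneven column totals and the epithelial signal in these values.

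Other genes of the pathway were read from lists. Of 40 other glucocorticoid-induced genes 31 were tested, and 6 were higher and 0 lower in stroke mice at an unadjusted p under 0.05, where 4.42% and 1.69% of all tested genes were. There were 20 positive and 11 negative differences. Their median log2 fold change was 0.10, against 0.01 over all tested genes. None had an adjusted p under 0.05 by limma. The 6 were Zfp36l2, Pik3ip1, Sesn1, Il1r2, Bcl2l11 and Anxa1, and omitting single mice gave counts of 5 to 8, in fits where 3.15% to 7.44% of all tested genes were higher.

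Zfp36l2, an RNA-binding protein that promotes mRNA decay and quiescence in developing B cells, was at 52.6 ± 22.4 (SD, n = 6) after sham surgery against 119 ± 31.5 (SD, n = 6) after stroke, a log2 fold change of 1.24 (SE 0.29, limma adjusted p = 0.549). Pik3ip1, an inhibitor of PI3-kinase, had a log2 fold change of 1.53 (SE 0.42, limma adjusted p = 0.716), and Sesn1, a sestrin that restrains TORC1, one of 1.28 (SE 0.36, limma adjusted p = 0.716). Both were highest in stroke mouse 5, at 331 and 263, and without it their fold changes were 1.22 and 0.96. Bcl2l11, the pro-apoptotic protein BIM through which glucocorticoids kill lymphocytes, had a log2 fold change of 0.75 (SE 0.29, limma adjusted p = 0.772) and 0.47 without stroke mouse 5. Il1r2, the decoy receptor of interleukin 1, and Anxa1, an inhibitor of inflammation, had log2 fold changes of 0.55 and 0.47. At the other end stood Zfp36 with -0.42 (limma adjusted p = 0.793), or -0.25 without stroke mouse 5, and Rgs2 with -0.20 (limma adjusted p = 0.824), or -0.11 without sham control 2.

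**Figure D5:**
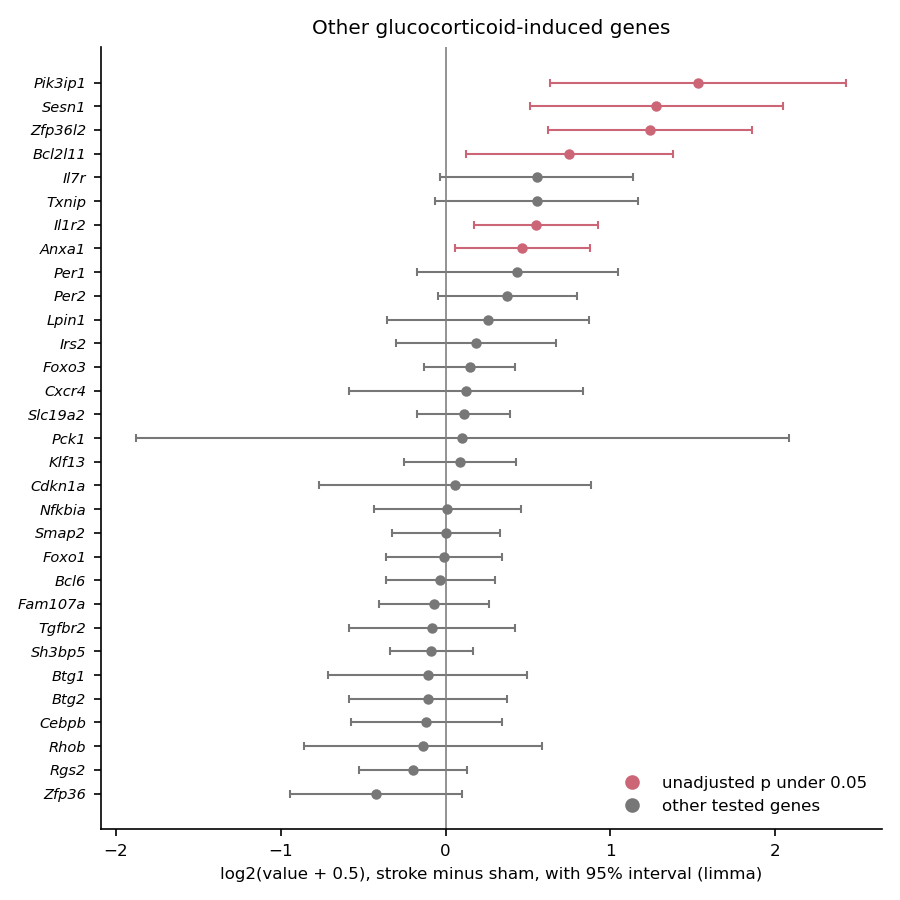
Log2 fold change of the 31 tested genes among the 40 other glucocorticoid-induced genes (horizontal axis, stroke minus sham on the log2(value + 0.5) scale), with 95% intervals from limma, red where the unadjusted p was under 0.05. The 6 red genes all lie above 0, between 0.47 and 1.53.

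Of 28 genes of the receptor complex, ligand handling and cofactors, 26 were tested, with 8 positive and 18 negative differences and a median of -0.11. By limma, 0 of them were lower in stroke mice at an unadjusted p under 0.05. Without sham control 6, 10 of the 26 were lower, in a fit where 9.2% of all tested genes were lower, and with the 4 mice of lowest weight left out 5 were, where 2.4% of all tested genes were. Abcb1a, an efflux pump that exports glucocorticoids, stood at -1.09 (limma adjusted p = 0.791), or -0.67 without sham control 1, the HSP40 co-chaperone Dnaja1 at -0.60 (limma adjusted p = 0.791) and the coregulator Nrip1 at 0.22 (limma adjusted p = 0.824), or 0.09 without stroke mouse 5.

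Of 30 NF-kB and AP-1 genes that glucocorticoids repress, 18 were tested, with 4 positive and 14 negative differences and a median of -0.18. Il1b, the cytokine interleukin 1 beta, was lower at an unadjusted p under 0.05, from 5.51 ± 2.25 (SD, n = 6) to 3.19 ± 1.45 (SD, n = 6), a log2 fold change of -0.73 (limma adjusted p = 0.791), and 0 were higher. Of all tested genes, 1.69% were lower. The count lower was 0 without sham control 1, 2 or 3 or stroke mouse 3 or 5, 2 without stroke mouse 1 or 2 (2.38% and 1.83% of all tested genes), and 5 without sham control 6, the fit in which 9.2% of all tested genes were lower. Fos stood at -1.26 (limma adjusted p = 0.793), Vcam1 at 0.16 (limma adjusted p = 0.894; 0.06 to 0.32 when single mice are omitted) and Fosl2 at 0.32 (limma adjusted p = 0.902), the last at 0.04 without stroke mouse 5. Il1b is best known from monocytes and neutrophils, whose marker sums are given with Cebpd.

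Of 16 TORC1 targets and partners of DDIT4, 14 were tested, with 7 positive and 7 negative differences, a median of 0.01 and 0 genes at an unadjusted p under 0.05 in either direction. Without sham control 6, 2 of the 14 were lower, against 9.2% of all tested genes in that fit. Without stroke mouse 6, 1 was higher and 1 lower, against 3.15% and 1.69% of all tested genes. The TORC1 subunit Mlst8 stood at -0.33 (limma adjusted p = 0.791), or -0.20 without stroke mouse 5, its activator Rheb at -0.27 (limma adjusted p = 0.792), Tbc1d7 at 0.28 (limma adjusted p = 0.834), or 0.17 without sham control 4, and Txnip at 0.55 (limma adjusted p = 0.791), or 0.30 without stroke mouse 5. Txnip also belongs to the list of induced genes. Under equal column totals the median of all genes moved to 0.127 and 72.6% of genes were positive, whereas the median was -0.015 with median-of-ratios scaling and 0.00217 with quantile normalization.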

How the data were processed

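Libraries were made from 6 sham controls and 6 stroke mice, 1 per mouse. Per the submitters' processing notes and the study's methods, reads were trimmed with Trimmomatic 0.39 and quantified with kallisto 0.48.0 against the GRCm38 transcriptome, and the authors compared groups with sleuth 0.30.0 in R 4.1.2. How the deposited TPM were normalized is not given in the sources used here. The deposited values are a normalized TPM signal per gene, made by the authors, whose column totals differ between mice, so that a count test was not possible and depth is unknown. Signal was transformed as log2(value + 0.5), genes at 1 or more in every mouse were kept (12590 of 36175), and groups were compared with limma 3.58.1 in R 4.3.3 with Benjamini-Hochberg adjustment over all of them. Single genes were also compared by exact two-sided permutation tests, and gene pairs by 100000 permutations. The fit was tested on simulated data.

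The members and lists were chosen with earlier results of these data known. Genes named from a list were those with an unadjusted limma p under 0.05 and the extremes in either direction. Promoter windows came from RefSeq, and gene positions from GENCODE. The alternatives were other pseudocounts (0.1 and 1), filters, scalings (median of ratios, equal totals with and without immunoglobulin genes, quantile), sample weights, an intensity trend, a replicate block, centring on group means and leaving out each mouse. Leaving out the 4 mice of lowest sample weight and using Fkbp5 as a likeness reference were chosen after seeing the data. Some genes that this rule names are not reported here.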

Additional observations from a re-analysis of the deposited data

Results flagged for a closer look

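The members and the genes named from the lists were each looked at in both groups of 6 mice, which gave 60 sets of values. Of these, 6 held a mouse whose gap to its nearest neighbour, relative to the set's range, was above Dixon's critical value at 95%. Gap and range were taken on the log2(value + 0.5) scale. Chance gives about 1 in 20 for independent sets. These sets share the same mice and the list genes were chosen by their differences, so the 6 cannot be set against that share. In sham control 6, Nr3c1 stood at 58.6, with the next sham control at 88.3, and Klf9 at 1.02, with the next at 1.72. In sham control 1, Zbtb16 stood at 1.54, and the next sham control at 0.376. In sham control 4, Il1r2 stood at 1.74, below the next at 2.73. In stroke mouse 5, Bcl2l11 stood at 104 and Txnip at 454, with the next stroke mice at 39.4 and 202.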

How the results depend on the processing

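In the limma fits the directions of Nr3c1, Tsc22d3, Fkbp5, Ddit4, Dusp1 and Mt1 were the same under every alternative run, and so were those of Zbtb16 and Cebpd in the exact tests, and 0 of the 8 tested genes reached an adjusted p under 0.05. The cause of the changes below was not tested. Leaving out each mouse in turn moved Sgk1 between -0.16 and 0.46, Nr3c1 between -0.26 and -0.09, Ddit4 between 0.52 and 0.96 and Mt1 between -1.26 and -0.37 on the log2 scale. Klf9 turned to -0.05 with sample weights and to -0.08 with the 4 mice of lowest weight left out, where Cebpd was -0.33 (exact permutation p = 0.0536). With equal totals the exact permutation p of Tsc22d3 (0.78) was 0.0238 and that of Ddit4 (0.94) was 0.0152.

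The numbers of the mice were not taken as pairs, because the correlation of same-numbered deviations (0.0134 to 0.494) was over 0.1 in 4 of the 6 numbers and not in all. Its mean was 0.218, against -0.0414 for other numbers, and not every sham control correlated best with its own number. With the replicate block, limma gave 770 genes higher and 404 lower. With same-numbered mice taken as pairs, Cebpd (-0.52) had a p of 0.0938 in an exact sign-flip test. That test is coarser than the exact permutation test over all mice. The number of genes with an adjusted p under 0.05 was 1 with a filter on the mean and 0 to 1 with each mouse left out. The number higher at an unadjusted p under 0.05 was 1418 without a filter, 369 with a filter at 5, 348 with equal totals, 348 with immunoglobulin genes removed as well, 866 with sample weights and 396 to 937 with each mouse left out. The number lower was 350 without a filter, 70 with equal totals, 327 with quantile normalization, 67 with immunoglobulin genes removed, 703 with sample weights and 144 to 1158 with each mouse left out, the highest of both without sham control 6. Of the 8 tested genes, 1 was higher with a filter on the mean (4.29% of all tested genes) and 4 with equal totals (2.76%). With immunoglobulin genes removed 4 were higher (2.81%), with sample weights 1 (6.88%) and with the 4 mice left out 1 (4.18%). With each mouse left out 1 to 3 were higher, where 3.15% to 7.44% of all tested genes were. Without a filter 1 of the 10 genes was lower (1.1%), and with each mouse left out 0 to 2 of the 8 were (1.14% to 9.2%).

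Centring on group means turned r to 0.0539 for Nr3c1 and Fkbp5, 0.029 for Nr3c1 and Klf9, 0.0916 for Tsc22d3 and Cebpd, 0.159 for Ddit4 and Cebpd and 0.108 for Dusp1 and Cebpd, and median-of-ratios scaling turned that of Fkbp5 and Mt1 to -0.00765. After centring, the 2 pairs past the threshold were Tsc22d3 with Ddit4 and Dusp1 with Mt1 (r = 0.788, adjusted permutation p = 0.0459). Depth is unknown, so the counting error of Zbtb16 and Cebpd, whose signal fell under 1 in some mice, cannot be given.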
